A study of Mus musculus with 6 samples.

Results

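The genes described here are 34 mouse genes of glycolysis and the hypoxia response, taken by name from a list of symbols and found once each, by Ensembl gene ID, among the 34745 rows of the gene table. They were followed in cells labelled alveolar macrophages, resident phagocytes of the lung alveoli, collected by bronchoalveolar lavage (washing out the airways). Markers of other cells were present too, as given below. There were 3 libraries from Phlpp1-deficient mice and 3 from wild-type (WT) mice. Phlpp1 encodes a phosphatase known to dephosphorylate the kinase Akt, a regulator of glucose use. Mice of both genotypes were given bleomycin, an agent whose lung injury leads to fibrosis, at a dose of 5 mg per kg, and lavage was done on day 7. Saline-instilled mice were not analysed here. The labels do not describe the Phlpp1 allele, the tissues in which it is lost, or the age, sex or strain of the mice. They also leave unstated whether the libraries are from different animals. The p-values therefore set each difference only against the variation between these libraries, which may be technical variation. The design compares the genotypes after bleomycin.

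By role, 3 members belong to oxygen sensing (Hif1a, Egln1 and Egln3), 2 to transport of glucose or lactate (Slc2a1 and Slc16a3) and 15 to the steps of glycolysis. Another 2 set the pace of glycolysis (Pfkfb3 and Pfkfb4), 2 decide the fate of pyruvate (Ldha and Pdk1) and 10 are other genes known to be induced by hypoxia. Glycolysis converts glucose to pyruvate and yields ATP without oxygen, and macrophages are known to lean on it when activated. The transcription factor HIF1A is made continuously; with oxygen present, prolyl hydroxylases of the EGLN family mark it for destruction by the VHL ubiquitin ligase. When oxygen is short, HIF1A accumulates, binds the hypoxia response element and raises transcription of most glycolytic genes and of Egln3, whose product in turn limits HIF1A.

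The hypoxia response element has a core that reads ACGTG or GCGTG. This core was searched on both strands in the 250 bases before each gene start given by RefSeq (build GRCm38.p6), where 31 of the 34 members had at least 1 window. Bnip3l, Ero1l and Ndrg1 had no entry. The core was present for 28 of the 31 members, and Gpi1, Tpi1 and Eno2 lacked it in this window. By window, it was in 35 of 45 member windows (77.8%), against 12679 of all 32851 windows of the same length (38.6%). Member windows were also richer in CpG, with a median of 14 CpG against 6 in all windows. Among the 9646 windows with at least 14 CpG, 67.3% held the core, which contains a CpG itself. Those windows had a median of 22 CpG, so they were richer in CpG than the member windows and not matched to them. A match describes letters only and does not show binding.

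The 5 windows below show this core in the 4 members whose values differed most between libraries of the same genotype (Ankrd37, Egln3, Slc16a3 and Bnip3) and in Egln1, which had the narrowest spread of the members with a single window and at least 1 FPKM. Each is the strand of its gene, 5′ to 3′, ending at the base before the RefSeq start. Capitals mark the core, which reads CACGT or CACGC where it lies on the opposite strand, and touching or overlapping matches form a single run.
Ankrd37, chr8:45999851-46000100, minus strand: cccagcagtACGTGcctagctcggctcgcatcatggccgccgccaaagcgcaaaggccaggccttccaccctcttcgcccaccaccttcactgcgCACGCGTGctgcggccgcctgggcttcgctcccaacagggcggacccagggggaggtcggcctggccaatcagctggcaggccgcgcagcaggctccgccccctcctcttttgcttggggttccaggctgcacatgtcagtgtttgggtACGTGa
Egln3, chr12:54203875-54204124, minus strand: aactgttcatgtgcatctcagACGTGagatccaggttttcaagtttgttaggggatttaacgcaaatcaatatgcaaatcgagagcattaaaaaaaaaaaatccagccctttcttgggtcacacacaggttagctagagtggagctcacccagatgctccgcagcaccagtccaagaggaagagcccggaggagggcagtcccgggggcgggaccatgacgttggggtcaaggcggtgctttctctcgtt
Slc16a3, chr11:120948817-120949066, plus strand: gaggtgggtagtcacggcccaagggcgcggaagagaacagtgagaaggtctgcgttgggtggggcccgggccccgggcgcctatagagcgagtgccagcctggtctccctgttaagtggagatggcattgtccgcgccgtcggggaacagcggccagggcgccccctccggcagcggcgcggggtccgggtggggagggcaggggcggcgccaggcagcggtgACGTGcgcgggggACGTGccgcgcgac
Bnip3, chr7:138909507-138909756, minus strand: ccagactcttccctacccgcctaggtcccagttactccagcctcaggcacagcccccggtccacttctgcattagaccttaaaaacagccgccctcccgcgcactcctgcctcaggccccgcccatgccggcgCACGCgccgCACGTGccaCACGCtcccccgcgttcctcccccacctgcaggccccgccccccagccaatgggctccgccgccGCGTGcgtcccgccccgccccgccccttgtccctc
Egln1, chr8:124949255-124949504, minus strand: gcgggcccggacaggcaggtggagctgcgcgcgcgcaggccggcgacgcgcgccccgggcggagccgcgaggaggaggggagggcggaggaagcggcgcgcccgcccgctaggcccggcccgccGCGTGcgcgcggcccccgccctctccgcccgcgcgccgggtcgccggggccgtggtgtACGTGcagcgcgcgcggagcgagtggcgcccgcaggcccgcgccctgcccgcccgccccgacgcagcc
Bnip3 held 5 matches, Ankrd37 held 4, Slc16a3 and Egln1 held 2 each and Egln3 held 1. The Slc16a3 matches began 27 and 14 bases before the start, whereas the match of Egln3 began 229 bases before it. In GENCODE M21 the Egln3 window lies upstream of the gene. The windows of Bnip3 and Egln1 reach into an annotated first exon, that of Ankrd37 overlaps first exons and the start of the opposite-strand gene Lrp2bp, and that of Slc16a3 lies inside the span of a longer transcript. Egln3 and Ankrd37, both of wide spread, thus differed in their number of matches, and Egln1, of narrow spread, had as many as Slc16a3.

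Library totals lay between 13340861 and 15843764 counts. Values per library are given below as CPM, counts scaled to library size after correction for composition by the TMM method. Phlpp1 itself had 23.2, 21.6 and 17.7 CPM in Phlpp1-deficient libraries 1, 2 and 3, against 30.3, 25.3 and 28.5 CPM in WT libraries 1, 2 and 3. All Phlpp1-deficient libraries lay below all WT libraries, and the transcript was counted in every library (log2 difference −0.43, adjusted p = 0.620 by edgeR, exact two-sided permutation p = 0.1, the smallest that 3 against 3 allows). The labels do not say which part of the gene is deleted, so reads from an undeleted part cannot be told apart from intact transcript. Siglecf and Marco, which mark alveolar macrophages, lay between 96.4 and 223 CPM and between 221 and 495 CPM over the 6 libraries, and 20 resident markers summed to between 7516 and 14095 CPM in Phlpp1-deficient libraries and between 8142 and 9750 CPM in WT libraries. Markers of other cells were present as well. The neutrophil marker Csf3r had 1787, 2138 and 434 CPM in Phlpp1-deficient libraries, against 389, 3939 and 698 CPM in WT libraries. The summed level of 21 neutrophil markers ranged from 1754 to 9660 CPM in Phlpp1-deficient libraries and from 1445 to 12834 CPM in WT libraries, highest in library 2 of both genotypes. Summed monocyte markers (17 genes) ranged from 6222 to 13320 CPM in Phlpp1-deficient libraries and from 8210 to 15378 CPM in WT libraries. All 17 monocyte markers had log2 differences below 0 (median −0.79), and 19 of the 20 resident markers lay above 0 (median 0.40), with none of either list called by edgeR and 5 monocyte markers and 1 resident marker at an unadjusted p under 0.05. Summed erythroid markers (8 genes) ranged from 368 to 5173 CPM in Phlpp1-deficient libraries and from 460 to 8432 CPM in WT libraries, again highest in library 2 of both. T cell (Cd3e), NK cell (Ncr1) and airway (Scgb1a1) markers were also above 0 in every library. Summed NK cell markers (10 genes) ranged from 121 to 211 CPM in Phlpp1-deficient libraries and from 233 to 289 CPM in WT libraries, without overlap, and all 10 had log2 differences below 0 (median −0.94, none called by edgeR, 6 at an unadjusted p under 0.05). Summed B cell markers (10 genes) ranged from 490 to 1804 CPM in Phlpp1-deficient libraries and from 300.2 to 634 CPM in WT libraries. All 10 had log2 differences above 0 (median 1.37, none called by edgeR, 5 at an unadjusted p under 0.05). Summed epithelial markers (13 genes) ranged from 511 to 1160 CPM in Phlpp1-deficient libraries and from 370 to 422 CPM in WT libraries, without overlap. All 13 had log2 differences above 0 (median 0.43, none called by edgeR, 3 at an unadjusted p under 0.05). Of 12 T cell markers, 10 lay above 0 and 2 below (median 0.33, none called by edgeR, 3 at an unadjusted p under 0.05). Over all 14037 tested genes, 6.96% had an unadjusted p under 0.05 by edgeR and 45.7% had a log2 difference above 0. For 11.1% of single genes the groups did not overlap, and no such share was computed for summed levels. The part of these shifts in marker levels in the members' values was not tested. In such a mixture, fewer cells of a type and less RNA per cell cannot be told apart.

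Levels can be compared between genes only per length, and the deposited FPKM (fragments per kilobase of length and per sequencing depth) turned out to use unusual lengths. Each FPKM is the count per library total and per base of a length fixed for each gene. For 16490 of 22184 genes (74.3%) this length equals, within 1%, all distinct GENCODE M21 exons added up, so bases shared by exons of several transcripts are counted repeatedly. The merged exons gave the same length for 25.9% of genes and the principal transcript (the APPRIS choice, or the longest transcript where APPRIS gives none) for 30.1%. Gapdh, which makes bisphosphoglycerate, was divided by 8626 bases although its principal transcript has 1420, a factor of 6.07. Pkm was divided by 2599 bases against 2432 in its principal transcript. Levels are therefore given below as FPKM on the principal transcript unless the deposited FPKM is named; this scale was added after seeing the data. Differences between genotypes do not depend on the length, which is the same in every library.

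**Figure D1:**
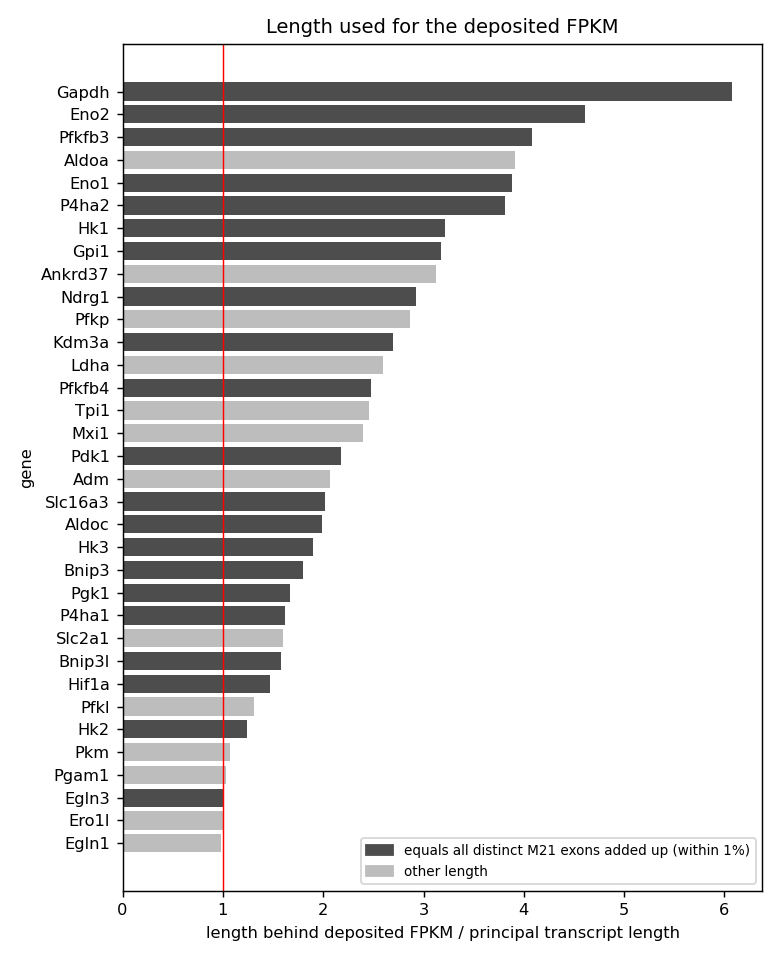
Bars show, for each of the 34 members (rows), the length behind the deposited FPKM divided by the length of the principal transcript; the red line marks equal lengths, and dark bars are genes whose length equals all distinct M21 exons added up. Gapdh stands at 6.07 and Egln1, Ero1l and Egln3 at about 1, so the deposited FPKM ranks these genes on unequal terms.

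Pkm, whose product makes pyruvate, had the highest level of the 34 on every length scale, with a mean over the 6 libraries of 474 FPKM on the principal transcript and 443 deposited FPKM. Aldoa, the aldolase that splits fructose bisphosphate, followed with 351 FPKM on the principal transcript and 89.7 deposited FPKM. Ldha, which turns pyruvate into lactate, had 279 FPKM on the principal transcript and 107 deposited FPKM. Next on the principal transcript scale were Pgam1 (152 FPKM), Gpi1 (125 FPKM), Eno1 (102 FPKM), Pgk1 (98.5 FPKM) and Gapdh (81.4 FPKM), which carry out other steps of the chain. Gapdh ranked 8th of the members on this scale, 12th per merged exons and 20th by deposited FPKM, the widest change of rank among these enzymes. Hif1a had 74.0 FPKM on the principal transcript, close to Tpi1 at 73.6 FPKM. Slc2a1, the glucose transporter GLUT1, had 42.8 FPKM and Slc16a3, the lactate exporter MCT4, had 27.2 FPKM on the principal transcript. At the low end were Ankrd37 (3.43 FPKM), the collagen prolyl hydroxylase subunit P4ha2 (0.789 FPKM) and the vasodilator peptide Adm (0.633 FPKM) on the same scale, with the neuronal enolase Eno2 between Ankrd37 and P4ha2. Adm rested on 7 to 16 counts per library and P4ha2 on 12 to 38, so counting error is large for both.

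Where several genes encode the same step, the leading gene was the same in all 6 libraries and on all 4 scales tried (counts, deposited FPKM, merged exons, principal transcript) for 9 of 14 steps. Enolase is counted here without Eno1b, a gene nearly identical to Eno1. Aldoa supplied between 96.9% and 98.6% of the aldolase FPKM on the principal transcript. Pgam1 made up about 99.7% or more of phosphoglycerate mutase beside the muscle form Pgam2. Pkm made up at least 99.9% of pyruvate kinase beside Pklr, the liver and red cell form. Ldha made up 96.4% to 97.1% of lactate dehydrogenase beside Ldhb, and Eno1 85.9% to 90.2% of enolase beside the muscle form Eno3 and Eno2. Eno1b, left out of that share, had a mean of 47.7 FPKM on the principal transcript, against 102 FPKM for Eno1. By deposited FPKM Eno1b had a mean of 48.6, against 26.4 for Eno1. The share of Eno1 therefore holds only with Eno1b left out. With Eno1b counted, Eno1 kept the higher mean on the principal transcript and the higher total count (17691 against 7297). Its mean was the lower by deposited FPKM and per merged exons (38.6 against 45.5 FPKM). Bnip3l, a receptor for mitophagy, made up 74.3% to 88.3% of the FPKM it shared with its relative Bnip3, and P4ha1 92.4% to 97.8% of the collagen prolyl hydroxylase subunits. Slc2a1 led Slc2a3 and Slc2a6 with 49.2% to 67.2% of the glucose transporter FPKM.

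For the other steps the leading gene depended on the length scale or on the library. Among hexokinases, the enzymes that phosphorylate glucose, Hk1 led in 4 libraries and Hk3 in 2 on the principal transcript. By deposited FPKM Hk3 led in 4 libraries and Hk2 in 2, although Hk1 had the most counts in all 6. On the principal transcript the Hk1 share was 46.6%, 41.3% and 38.9% in Phlpp1-deficient libraries, against 42.9%, 36.6% and 38.3% in WT libraries. The groups overlapped, and Hk2 held the smallest share in every library on this scale, 20.8% to 25.6%. Pfkp supplied 64.8% to 68.4% of phosphofructokinase FPKM on the principal transcript but led Pfkl in only 4 of 6 libraries by deposited FPKM. Among pyruvate dehydrogenase kinases, which keep pyruvate out of mitochondria, Pdk1 had the most counts in all 6 libraries, whereas Pdk3 led in all 6 on the length scales, with 39.8% to 48.0% on the principal transcript.

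Of the regulators that make and remove fructose bisphosphate signals for phosphofructokinase, Pfkfb3 held 31.1%, 50.03% and 48.0% of the PFKFB FPKM on the principal transcript in Phlpp1-deficient libraries, against 27.5%, 24.3% and 34.3% in WT libraries. Pfkfb4 held 57.4%, 43.3% and 40.3% in Phlpp1-deficient libraries, against 57.4%, 69.2% and 52.7% in WT libraries. Pfkfb3 therefore led in Phlpp1-deficient libraries 2 and 3 and Pfkfb4 in the other 4, while by deposited FPKM Pfkfb4 led in all 6. The share of Pfkfb3 in Phlpp1-deficient library 1 lay below that in WT library 3, so the groups overlapped.

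Among the HIF prolyl hydroxylases, Egln3 held 44.5%, 57.9% and 22.9% of the FPKM on the principal transcript in Phlpp1-deficient libraries, against 22.1%, 45.5% and 22.4% in WT libraries. It led in Phlpp1-deficient libraries 1 and 2 and in WT library 2 on every scale, and Egln2 led in the other 3 on the principal transcript. Slc16a3 held 88.4%, 88.7% and 65.5% of the monocarboxylate transporter FPKM in Phlpp1-deficient libraries, against 67.8%, 89.2% and 77.7% in WT libraries, with Slc16a1 in second place. Egln3 and Slc16a3 had their highest shares in the same 3 libraries, which came from both genotypes and held the most neutrophil marker RNA. Differences between genotypes in these shares were not tested.

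**Figure D2:**
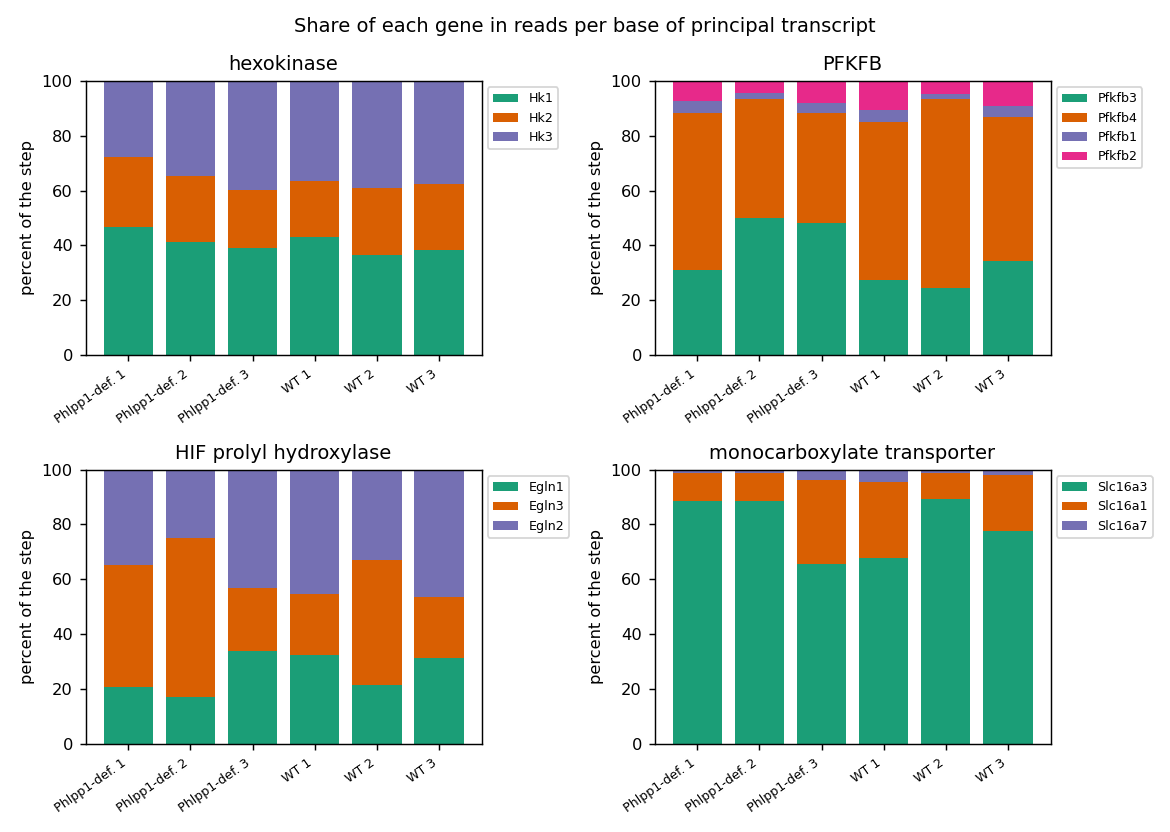
Stacked bars give, for each library, the percent of FPKM on the principal transcript that each gene supplies within 4 steps (hexokinase, PFKFB, HIF prolyl hydroxylase, monocarboxylate transporter). Egln3 reaches 44.5% and 57.9% in Phlpp1-deficient libraries 1 and 2 and 45.5% in WT library 2, against 22.1% to 22.9% in the other 3.

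In the comparison of Phlpp1-deficient with WT libraries, none of the 34 members passed the test (edgeR quasi-likelihood, Benjamini-Hochberg adjusted p under 0.05). All 34 passed the filter on low counts, and across the 14037 genes tested 14 were called (0.0997%), 7 of them higher in Phlpp1-deficient libraries (0.0499%) and 7 lower (0.0499%). At an unadjusted p under 0.05 there was 1 member (Ero1l), against 977 of all tested genes (6.96%). DESeq2 also called no member, with 2 at an unadjusted p under 0.05, and limma-voom called none, with 1. The log2 differences ran from −0.67 (Ankrd37) to 1.01 (Egln3), with 13 members above 0 and 21 below and a median of −0.07. Over all tested genes 45.7% lay above 0 and the median was −0.02. The groups did not overlap for 2 members, Ero1l (Phlpp1-deficient above WT) and Pgam1 (below), against 1558 of all tested genes (11.1%), 4.57% above and 6.53% below. The 15 glycolytic steps had 2 members above 0 and 13 below, with a median log2 difference of −0.12. Their summed level was 3171, 3710 and 3370 CPM in Phlpp1-deficient libraries, against 3267, 3946 and 4030 CPM in WT libraries, so the ranges overlapped.

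**Figure D3:**
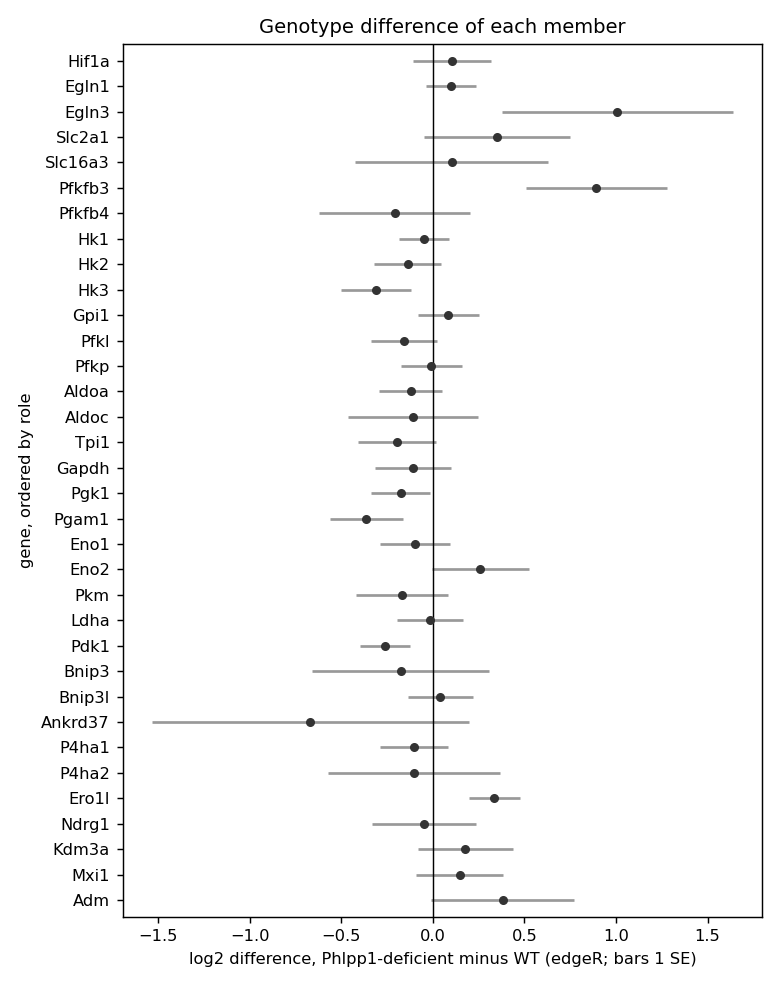
Points give the log2 difference of each of the 34 members, Phlpp1-deficient minus WT, from edgeR, and bars 1 standard error on either side; genes are ordered by role. Egln3 (1.01), Pfkfb3 (0.89) and Ankrd37 (−0.67) lie farthest from 0, with wide bars, and all other members lie between −0.36 (Pgam1) and 0.38 (Adm).

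Hif1a (chromosome 12, 73901375 to 73947530) had 335, 430 and 326 CPM in Phlpp1-deficient libraries, against 266, 368 and 380 CPM in WT libraries. The groups overlapped (log2 difference 0.10, SE 0.21, adjusted p = 0.9998). Egln1, the main hydroxylase acting on HIF1A in normal oxygen, had 57.6, 67.0 and 62.1 CPM in Phlpp1-deficient libraries, against 63.9, 51.9 and 58.7 CPM in WT libraries. Its values were among the steadiest of the list (log2 difference 0.10, SE 0.14, adjusted p = 0.9998). Egln3, the hydroxylase that HIF1A itself induces (chromosome 12, 54178981 to 54203860), had 92.2, 167 and 31.0 CPM in Phlpp1-deficient libraries, against 32.3, 81.4 and 31.1 CPM in WT libraries. Phlpp1-deficient libraries 1 and 2 were the highest of all, while library 3 lay at the level of WT libraries 1 and 3. The log2 difference of 1.01 had an SE of 0.63 and an adjusted p of 0.912, and it was 0.35 without Phlpp1-deficient library 2, 1.62 without WT library 2 and 0.54 in a fit with mean neutrophil marker level as covariate.

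Slc2a1 had 163, 227 and 84.7 CPM in Phlpp1-deficient libraries, against 85.0, 176 and 111 CPM in WT libraries. The log2 difference of 0.35 (SE 0.40, adjusted p = 0.9998) was −0.0048 without Phlpp1-deficient library 2 and 0.70 without WT library 2. Slc16a3 had 132, 182 and 58.9 CPM in Phlpp1-deficient libraries, against 54.1, 185 and 108 CPM in WT libraries. Library 2 was the highest of each genotype (log2 difference 0.10, SE 0.52, adjusted p = 0.9998). In the fit with the neutrophil covariate the difference of Slc16a3 was −0.19, and that of Slc2a1 was 0.09.

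Pfkfb3, which raises the signal that activates phosphofructokinase (chromosome 2, 11471433 to 11554077), had 69.7, 182 and 110 CPM in Phlpp1-deficient libraries, against 44.0, 86.9 and 63.7 CPM in WT libraries. Its means were 120 ± 56.8 CPM in Phlpp1-deficient libraries and 64.9 ± 21.5 CPM in WT libraries (SD, n = 3 each). Phlpp1-deficient library 1 lay within the WT range, so the groups overlapped. The log2 difference was 0.89 with an SE of 0.39 and an adjusted p of 0.727 by edgeR; it was 0.47 without Phlpp1-deficient library 2 and 0.78 with the neutrophil covariate. With a block for the replicate number its adjusted p was 0.219, the lowest of any member under any setting tried. Pfkfb4 had 96.8, 118 and 69.3 CPM in Phlpp1-deficient libraries, against 69.1, 186 and 73.8 CPM in WT libraries. WT library 2 exceeded every other library for Pfkfb4 (log2 difference −0.21, SE 0.41, adjusted p = 0.9998).

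Among the glycolytic steps, Pgam1 (phosphoglycerate mutase, chromosome 19, 41911923 to 41918660) had 194, 257 and 257 CPM in Phlpp1-deficient libraries, against 285, 265 and 361 CPM in WT libraries. Every Phlpp1-deficient library lay below every WT library, by a small gap (log2 difference −0.36, SE 0.20, adjusted p = 0.849). Hk3, a hexokinase found mainly in blood cells, had 62.5, 88.6 and 89.8 CPM in Phlpp1-deficient libraries, against 85.5, 114 and 99.0 CPM in WT libraries. The groups overlapped (log2 difference −0.31, SE 0.19, adjusted p = 0.902). Pkm had 1046, 1310 and 923 CPM in Phlpp1-deficient libraries, against 900, 1463 and 1320 CPM in WT libraries. Both the lowest and the highest value of Pkm came from WT libraries (log2 difference −0.17, SE 0.25, adjusted p = 0.9998). Hk1 was close to level over all libraries, with 125, 126 and 105 CPM in Phlpp1-deficient libraries, against 121, 128 and 120 CPM in WT libraries (log2 difference −0.05, SE 0.14).

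The remaining glycolytic steps lay between −0.20 (Tpi1) and 0.26 (Eno2) on the log2 scale, each with overlapping groups. Gapdh, often used as a reference gene, had 81.8, 112 and 140 CPM in Phlpp1-deficient libraries, against 120, 110 and 129 CPM in WT libraries. Its highest and lowest values were both in Phlpp1-deficient libraries, 1.71-fold apart. Aldoa had 466, 471 and 586 CPM in Phlpp1-deficient libraries, against 552, 531 and 573 CPM in WT libraries (log2 difference −0.12, SE 0.17). Ldha had 435, 512 and 521 CPM in Phlpp1-deficient libraries, against 481, 436 and 565 CPM in WT libraries, with a log2 difference of −0.01 (SE 0.18). Pdk1 had 51.8, 49.8 and 45.6 CPM in Phlpp1-deficient libraries, against 51.7, 60.3 and 64.6 CPM in WT libraries. Phlpp1-deficient library 1 lay just above the lowest WT library (log2 difference −0.26, SE 0.14, adjusted p = 0.840).

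Ero1l, an oxidase of the endoplasmic reticulum that forms disulfide bonds and is induced by hypoxia (chromosome 14, 45283087 to 45318771), had 79.9, 97.7 and 83.0 CPM in Phlpp1-deficient libraries, against 72.1, 62.1 and 72.2 CPM in WT libraries. All Phlpp1-deficient libraries lay above all WT libraries, with means of 86.9 ± 9.51 CPM in Phlpp1-deficient libraries and 68.8 ± 5.78 CPM in WT libraries (SD, n = 3 each). The log2 difference was 0.34 (SE 0.14, unadjusted p = 0.046, adjusted p = 0.697 by edgeR) and lay between 0.24 and 0.40 when any library was left out. In the fit with the neutrophil covariate it was 0.35. Kdm3a, a histone demethylase induced by hypoxia, had 93.1, 91.2 and 79.0 CPM in Phlpp1-deficient libraries, against 56.3, 111 and 65.5 CPM in WT libraries. Mxi1, an antagonist of MYC, had 61.4, 75.2 and 64.2 CPM in Phlpp1-deficient libraries, against 47.0, 83.8 and 50.8 CPM in WT libraries. For both genes the Phlpp1-deficient libraries lay above WT libraries 1 and 3, and WT library 2 was the highest of all. The log2 difference of Kdm3a was 0.18, and 0.54 without WT library 2, and that of Mxi1 was 0.15, and 0.47 without WT library 2.

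Ankrd37, an ankyrin repeat protein induced by hypoxia, had 3.51, 2.94 and 1.10 CPM in Phlpp1-deficient libraries, against 0.722, 9.12 and 2.36 CPM in WT libraries. WT libraries spanned a 12.6-fold range, and the log2 difference was −0.67 (SE 0.86) but 0.73 without WT library 2. Bnip3, a mitophagy receptor, had 12.8, 25.4 and 11.6 CPM in Phlpp1-deficient libraries, against 10.4, 32.1 and 13.98 CPM in WT libraries. Library 2 stood highest in both genotypes (log2 difference −0.18, SE 0.48). Ndrg1, a stress-responsive gene, had 45.4, 49.8 and 30.9 CPM in Phlpp1-deficient libraries, against 34.3, 61.0 and 35.2 CPM in WT libraries, and again library 2 was the highest of each. Bnip3l, P4ha1, P4ha2 and Adm had log2 differences between −0.10 and 0.38, each with overlapping groups.

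**Figure D4:**
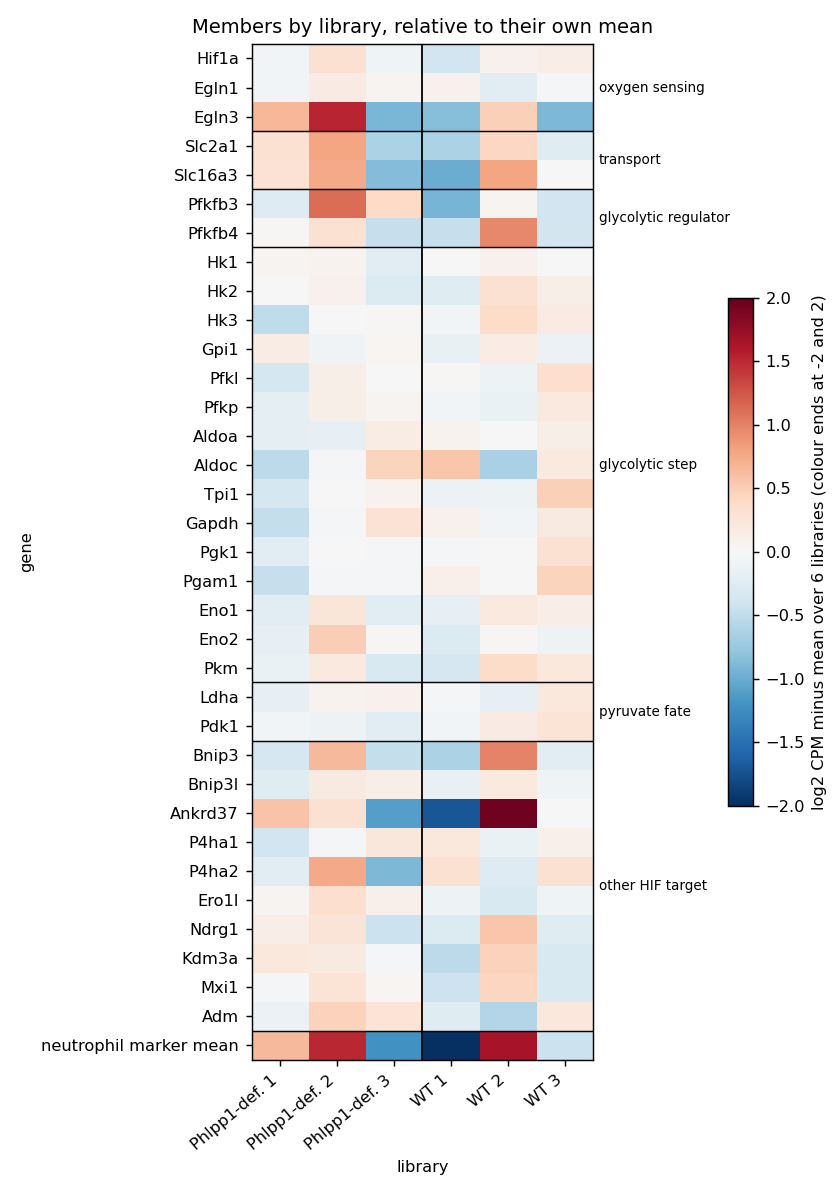
Colours give log2 CPM of each member (rows, grouped by role) in each library (columns, Phlpp1-deficient left of WT), minus the mean of that gene over the 6 libraries; the bottom row gives the mean of 21 neutrophil markers in the same way. Egln3, Slc2a1, Slc16a3, Pfkfb4 and Bnip3 are highest in library 2 of each genotype, as is the neutrophil row, while the glycolytic steps are paler.

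Libraries of the same genotype differed more for some hypoxia targets than for most glycolytic enzymes. The within-group SD of log2 CPM was 1.35 for Ankrd37, 1.03 for Egln3, 0.86 for Slc16a3 and 0.73 for Bnip3, all over the 90th percentile of the 14037 tested genes (0.69). It was 0.63 for Slc2a1 and for Pfkfb4, 0.60 for Pfkfb3, 0.58 for P4ha2 and 0.55 for Aldoc, which brought to 9 of 34 the members over the upper quartile (0.46). At the other end were Hk1 (0.11), Egln1 and Pdk1 (0.13 each) and Gpi1 and Aldoa (0.14 each), and 18 members lay under the median of all tested genes (0.28). The counts of members beyond these cut-offs were close to the shares that the cut-offs set by definition over all tested genes. They do not set the list as a whole apart. Within it, the 2 transport and the 2 glycolytic regulator genes had wide spreads, and most glycolytic steps narrow ones.

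Library 2 was the highest of its genotype for 23 members among Phlpp1-deficient libraries and for 18 among WT libraries. WT library 1 was the lowest WT library for 20 members, and Phlpp1-deficient library 1 the lowest of its group for 19. The matching shares over all tested genes were not counted, so these counts cannot be read as particular to the members. The neutrophil marker mean (log2 CPM) was 6.73, 7.59 and 4.86 in Phlpp1-deficient libraries 1, 2 and 3, against 3.92, 7.73 and 5.66 in WT libraries. Slc2a1, Slc16a3, Pfkfb4, Bnip3, Ndrg1, Hk2 and Pkm followed that order in both genotypes, 7 of 34 members (20.6%), against 1143 of all tested genes (8.14%). The other members did not, among them Egln3, Pfkfb3, Ero1l, Egln1 and Gpi1. Of the 9 members with the widest spread, 4 followed the order. The part of neutrophils, or of the erythroid RNA that was highest in library 2 of both genotypes, in the members' values was not tested. The covariate values above are log2 differences from another fit to the same libraries and are not such a test.

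**Figure D5:**
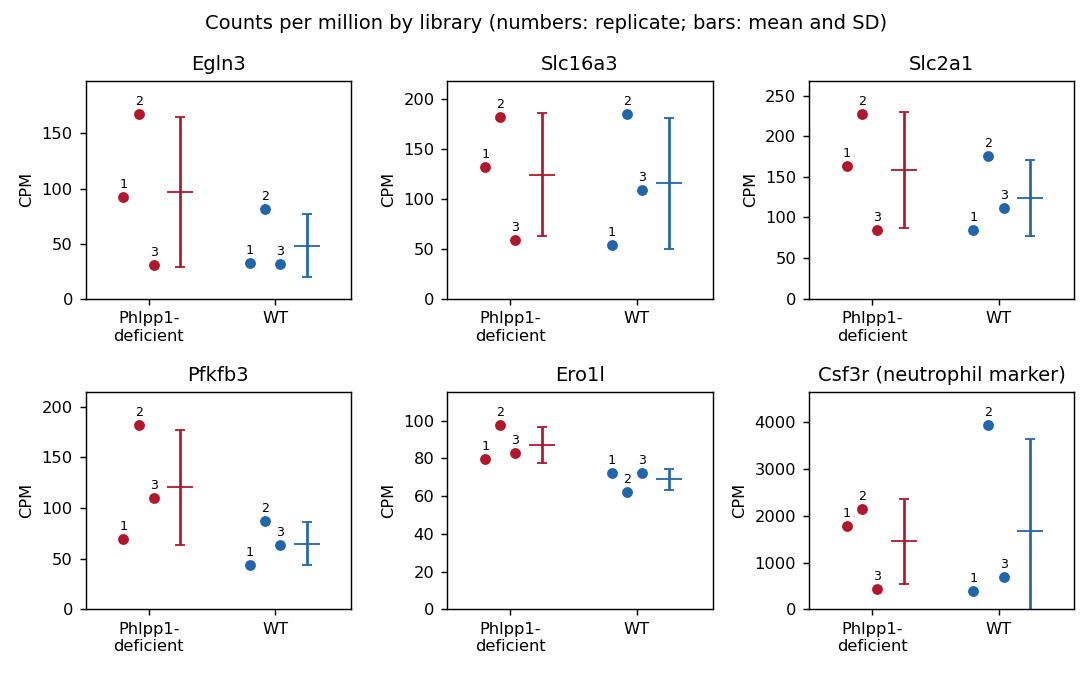
Each point is a library (numbered by replicate) and bars give mean and SD in CPM, with Phlpp1-deficient left of WT, for 5 members and the neutrophil marker Csf3r, whose WT bar is drawn only above 0. Library 2 is the highest in both genotypes for Egln3, Slc16a3, Slc2a1 and Pfkfb3, whereas for Ero1l all Phlpp1-deficient libraries (79.9 to 97.7) lie above all WT libraries (62.1 to 72.2).

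Other genes of the same pathways were read from the same fit. Of 37 further glycolysis genes, 29 were tested and none was called by edgeR, with none at an unadjusted p under 0.05. There were 14 above 0 and 15 below, and the median log2 difference was −0.03. The smallest p-values belonged to Pdk4, a kinase that inhibits pyruvate dehydrogenase (log2 difference 0.62, adjusted p = 0.809), Adpgk, a glucokinase that uses ADP (0.25, adjusted p = 0.840), and Mpc1, a subunit of the mitochondrial pyruvate carrier (−0.44, adjusted p = 0.842). All 8 pentose phosphate genes were tested, none was called or had an unadjusted p under 0.05, and 7 lay below 0, with a median of −0.12. H6pd, Pgls and G6pdx, which carry out early steps of that pathway, had log2 differences of −0.29, −0.29 and −0.15.

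Of 44 further hypoxia response genes, 41 were tested and none was called by edgeR, with 9 at an unadjusted p under 0.05 (6.96% of all tested genes had such a p). The groups did not overlap for 10 of them, 6 with Phlpp1-deficient libraries above WT and 4 below. Over all tested genes 11.1% did not overlap, 4.57% above and 6.53% below. The median log2 difference of the 41 genes was 0.05. Rora, a nuclear receptor known as a HIF target, had 99.8, 97.0 and 95.4 CPM in Phlpp1-deficient libraries, against 56.0, 35.8 and 49.2 CPM in WT libraries (log2 difference 1.05, SE 0.18, adjusted p = 0.158). Hilpda, a lipid droplet protein induced by hypoxia, had 26.7, 28.0 and 11.5 CPM in Phlpp1-deficient libraries, against 7.16, 5.78 and 7.42 CPM in WT libraries (log2 difference 1.70, SE 0.34, adjusted p = 0.281). Vhl, which encodes the recognition subunit of the ligase that removes HIF1A, had 16.9, 29.8 and 17.9 CPM in Phlpp1-deficient libraries, against 33.4, 43.1 and 44.6 CPM in WT libraries (log2 difference −0.91, SE 0.25, adjusted p = 0.464). Rora, Hilpda and Vhl are named because they had the smallest p-values of the 41 genes, a choice that favours groups without overlap. In all 3 genes the groups did not overlap, and none of the 3 passed the test.

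Counts of some members are uncertain because other loci carry nearly the same sequence. Eno1 matched the gene Eno1b with 99.5% identity over 1736 bases, and Eno1b held 29.2% of the counts of the pair. Bnip3l matched its pseudogene Bnip3l-ps with 99.4% identity over 1131 bases, and the pseudogene held 29.8% of the counts of the pair. Gapdh had 145 matches (95% identity or more over 150 bases or more), and 7 of the matching genes were copies over at least 50% of their transcript with a row in the table. These 7 held 1.62% of the counts of Gapdh and the copies together. Reads dropped for matching several loci would not be seen in either row, so the level of Gapdh is uncertain. The same limit holds for other members with close matches, among them Pgk1 (100% identity over 1255 bases), Pkm (98.4% over 1593 bases) and Bnip3 (98.9% over 564 bases). Copies of Pgam1 held 8.60% and the copy of Gpi1 8.09% of the counts of gene and copies together, and Ero1l had 4 shorter matches but no such copy. Adding 14 such copies to their members changed no call. Hif1a, Slc2a1, Hk1, Hk2, Hk3, Gpi1, Pfkp, Pfkfb3, Aldoa, Tpi1, Gapdh, Ankrd37, Ndrg1, Mxi1 and Adm overlap an annotated gene on the opposite strand, and the sources used here do not state whether counting used strand. Pfkfb3 is the only member that also overlaps an annotated gene on its own strand (Gm37975). The effect of that overlap on its counts was not tested.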

How the data were processed

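The authors deposited a table which, per the file headers, gives read counts and FPKM for 34745 genes in each of 6 libraries of lavage cell messenger RNA (3 Phlpp1-deficient, 3 WT). The deposited counts are whole and unscaled, and each deposited FPKM is the count over the library total and over 1 length per gene (largest relative spread 8.8e-06, checked on 9265 genes with more than 100 counts). HISAT2, StringTie 1.3.0, edgeR and mm10 appear in the submitters' processing notes; annotation and strand setting are not given in the sources used here. All 12 columns were assigned to samples from their names.

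Of the gene IDs, 34344 were found in GENCODE M21 (GRCm38, the assembly of mm10) and 401 were not. Coordinates are 1-based positions of that release. The most alike libraries of a group differed by a chi-square of 39.3 per gene (10262 genes, 60 counts or more), more than sampling noise. Genotypes were compared with edgeR 4.0.16 in R 4.3.3 (filterByExpr, TMM, glmQLFit with robust=TRUE, glmQLFTest), with Benjamini-Hochberg adjustment over 14037 genes. The biological coefficient of variation was 0.281. A standard error is the size of the log2 difference over the root of its F statistic. The pipeline was tested on simulated data. Alternatives used DESeq2 1.42.0, limma 3.58.1 (voom, or log2 of FPKM with a pseudocount of 1 or 0.1), other scalings and filters, a replicate block, a neutrophil covariate, summed copies and leaving out each library. Copies were found with blastn 2.17.0, as matches of 95% identity or more over 150 bases or more to a gene that does not overlap. Promoter sequences are from RefSeq (GRCm38.p6).

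The members and gene lists were chosen with earlier results of these data known. Named genes are all members and Phlpp1, other genes of the same steps, and 1 or 2 fixed markers per cell type. From each other pathway list they are the called genes, or the 3 with the smallest p where none was called. Copies are named where they held at least 10% of the counts. Some genes that this rule takes are not reported here.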

Additional observations from a re-analysis of the deposited data

How the results depend on the processing

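No member was called under any of the 18 alternatives, and the median log2 difference of the members stayed between −0.10 and 0.04 when a library was left out. Over all genes, the 14 calls became 36 with no filter on low counts, 176 with DESeq2, 23 with limma-voom, 31 with limma on log2(FPKM + 0.1), 7 on log2(FPKM + 1) with no filter, 50 with the neutrophil covariate and between 1 and 32 when a library was left out. They were 4, 7 and 32 without Phlpp1-deficient library 1, 2 or 3, and 10, 12 and 1 without WT library 1, 2 or 3; the cause was not tested. With a replicate block there was 1 call. The replicate numbers were not taken as pairs: deviations of same-numbered libraries correlated at −0.12, 0.33 and 0.29, and Phlpp1-deficient library 1 correlated best with WT library 2. With all libraries kept, 15 of 407 member values changed sign, in 4 members. The neutrophil covariate gave 0.12 for Aldoc and −0.19 for Slc16a3. Ldha was 0.0038 with RLE factors, 0.0082 with no filter, 0.010 with the covariate, 0.0043 on log2(FPKM + 1) with and without filter and 0.0045 on log2(FPKM + 0.1). Pfkp was 0.0097, 0.014, 0.0021, 0.0071 and 0.0079 in the same order, and 0.0046 with DESeq2. When a library was left out, 30 of 204 values changed sign, in 20 members, with these ranges: Aldoc −0.37 to 0.17, Ankrd37 −1.18 to 0.73, Bnip3 −0.62 to 0.46, Bnip3l −0.043 to 0.17, Gapdh −0.29 to 0.072, Hif1a −0.044 to 0.23, Hk1 −0.097 to 0.052, Hk2 −0.28 to 0.0062, Kdm3a −0.0089 to 0.54, Ldha −0.080 to 0.12, Mxi1 −0.0081 to 0.47, Ndrg1 −0.20 to 0.29, P4ha1 −0.24 to 0.044, P4ha2 −0.65 to 0.22, Pfkfb4 −0.46 to 0.42, Pfkl −0.26 to 0.0047, Pfkp −0.072 to 0.12, Slc16a3 −0.28 to 0.62, Slc2a1 −0.0048 to 0.70 and Tpi1 −0.30 to 0.056. Phlpp1 lay between −0.51 and −0.30. Low counts limit Adm, P4ha2 and Ankrd37.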
